A study of Mus musculus with 8 samples.

Results

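The liver response to arsenite in drinking water was measured in mice on a high-fat diet, as the difference between 2 groups that differ only in the water: HFD+As against HFD. The 4 arrays of these groups were chosen by their titles, from 8 arrays in the series. All mice were male C57BL/6J. Mice of the HFD group ate a diet with 42% of its calories from fat and drank deionized water, and those of the HFD+As group ate the same diet and had sodium arsenite in their drinking water, at a concentration of 3 mg iAs/L (iAs is inorganic arsenic). The other groups, LFD and LFD+As, had the same 2 waters with a diet of 13% fat. Each group had 10 mice. RNA was extracted mouse by mouse and pooled in equal amounts from 5 mice per array, so an array shows a pool and each group has 2 arrays, called replicate 1 and replicate 2. The spread between arrays is therefore a spread between pools, and variation among single mice is not visible in it. The protocols give 10 weeks of exposure and the source label gives 90 days, and the difference could not be resolved.

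Inorganic arsenic is taken up by the liver and methylated there by the methyltransferase As3mt, with methyl groups from the methionine cycle. Trivalent arsenite binds protein thiols, and in cultured cells and acutely dosed animals it is known for switching on metallothioneins, heat shock proteins and the antioxidant genes controlled by the factor NRF2. A high-fat diet loads the same hepatocytes with fatty acids. The liver then balances its own fatty acid synthesis, driven by the factors SREBP-1c and ChREBP, against oxidation and export, in which the nuclear receptor PPAR-alpha takes part.

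The arrays gave log2 signals for 35556 transcript clusters, the array's unit for a gene, of which 23410 are in the platform annotation. A single gene symbol was given for 21789 clusters and several symbols for 1621. One cluster stood for each gene, which left 19938 genes, and the 11963 with the highest means were tested. Signals of the hepatocyte marker list had a mean of 14.01 and 13.99 on the HFD arrays and 13.92 and 13.96 on the HFD+As arrays, and 0 of its 8 genes were called, so the labelled tissue shows its defining genes. Across genes, HFD+As arrays correlated with HFD arrays at r between 0.974 and 0.99, and the arrays of a group with each other at 0.988 or more. The lowest of these between-group values was that of HFD+As replicate 1 with HFD replicate 1, so results are also given without single arrays.

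In livers of mice on the high-fat diet, arsenite went with lower signals of genes that make and desaturate fatty acids, and with higher signals of a smaller set that includes the quinone reductase gene Nqo1, the omega-hydroxylase genes Cyp4a10, Cyp4a14 and Cyp4a31, the small heat shock protein gene Hspb1 and proteasome subunits. A gene is written as called, or as having risen or fallen, where the adjusted p of limma (Benjamini-Hochberg over all 11963 genes) was under 0.05. Of the genes tested, 434 (3.63%) were called, 45 higher (0.376%) and 389 lower (3.25%). At least 2-fold changes were found in 6 of the higher and 22 of the lower genes. The 2 arrays of each group did not overlap for any of the 434, and such a lack of overlap was seen for 10.7% of all genes tested in the upward and for 45.8% in the downward direction. An unadjusted p under 0.05 was reached by 3140 genes (26.2%).

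Lower signals predominated among all genes tested and not only among those called. The difference was below 0 for 72.3% of the genes tested, and their median gene stood at -0.13 on the log2 scale. A gene at -0.13 is thus an average tested gene of this comparison with the deposited values. List medians of those values are to be read against -0.13. The shift varied with the filter on low signals. With no filter (19938 genes) the median difference was -0.03, and among the highest 40% of genes it was -0.17. In the settings below that take out the general shift or the trend on gene span, the median gene lies near 0. List medians of those settings are to be read against 0. The split of the calls followed the scaling of the arrays. Of the calls, 89.6% were lower with the deposited values. With the median gene difference set to 0, there were 68 calls, 30 higher (0.251% of genes) and 38 lower (0.318%), so 55.9% were lower. With each array centred on its median there were also 68, 46 higher and 22 lower (32.4% lower), and after quantile normalization 28, of which 14 were lower (50%).

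Differences varied with genomic span, the distance from a gene's first to its last base, introns included. The rank correlation across genes between an array's deviation from the gene mean and the span was 0.245 and -0.137 on the HFD arrays and -0.454 and -0.293 on the HFD+As arrays. In the shortest 10% of genes the median difference was 0.07, with 15 genes called higher and 8 lower. In the longest 10% the median was -0.25, with 0 called higher and 85 lower. The genes called lower had a median span of 45399 bases and those called higher 7495, against 21411 over all genes tested. With each array's trend on span removed, 42 genes were called, 22 higher and 20 lower (47.6% lower), and all but 1 of these 42 were among the 434.

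**Figure D1:**
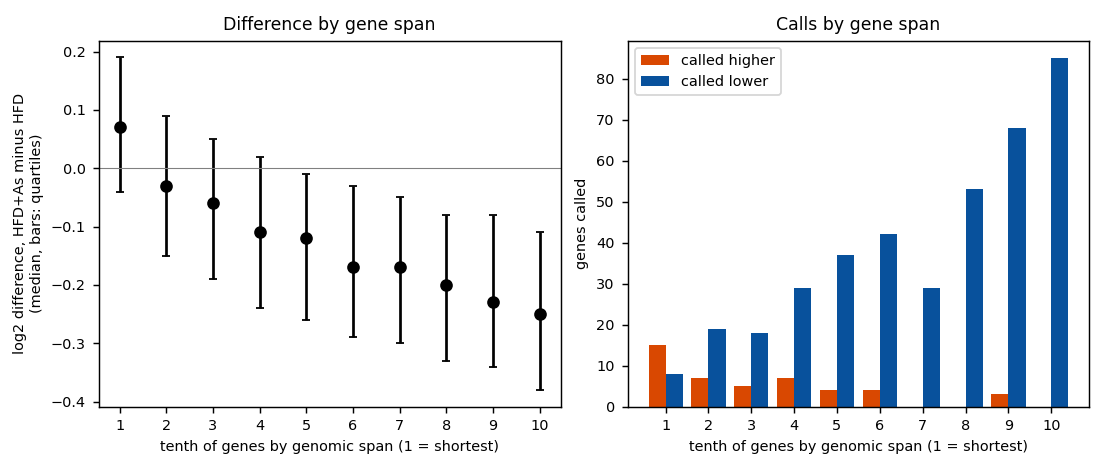
Left, the median log2 difference HFD+As minus HFD in 10 equal classes of the genes tested, ordered by genomic span (bars are quartiles over genes). Right, the number of genes called higher and lower in each class. The median runs from 0.07 in the shortest class to -0.25 in the longest, and the genes called lower from 8 to 85.

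The number of calls rested on single arrays and on which clusters entered the test. It was 25 without HFD replicate 1, 1121 without HFD replicate 2, 24 without HFD+As replicate 1, 423 without HFD+As replicate 2, 135 without either LFD array and 410 without either LFD+As array. Of the 67 called genes that are named here, 15 kept their call without HFD replicate 1 and 10 without HFD+As replicate 1, while 55 and 34 did without HFD replicate 2 and HFD+As replicate 2. With median centring 26 kept it, with quantile normalization 14, with the span trend removed 22 and with the median gene set to 0, 28. The 67 are the called genes chosen by the rule for named genes given under the processing. Further called genes that are given below for context are not counted among the 67. When clusters with several symbols were added, and each cluster was tested on its own, limma called 0 clusters. The lowest adjusted p was then 0.0527 and 3568 clusters had an unadjusted p under 0.05, with 5.39 prior degrees of freedom for the spread against 9.32. The added clusters, 1128 of which passed the filter on low signals, had a median difference of 0.19. The adjusted p-values below hold for the genes with a single symbol.

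A set of 11 genes was called without any 1 of the 8 arrays, 2 higher and 9 lower. The higher genes were the aldo-keto reductase gene Akr1c19 and the predicted gene Gm16381. The lower ones were Chrna4, Ppard, Fabp5, Camk1d, Elovl5, Ccnd1, Scd1, Pstpip2 and Acpp. Of these, Gm16381 (1.03), Pstpip2 (-1.05), which encodes an adaptor protein of myeloid cells, and the acid phosphatase gene Acpp (-1.02) lie outside the rule for named genes and were chosen after their values were seen. Across the 4 scaling alternatives (median centring, quantile normalization, span trend removed, median gene set to 0), 24 genes were called in each, 12 higher and 12 lower.

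Among the genes that rose, Nqo1 had the largest change. Its product reduces quinones, and the gene is a standard target of NRF2. Nqo1 had log2 signals of 7.12 and 7.04 on the HFD arrays and 7.83 and 9.03 on the HFD+As arrays. It rose by 1.35 (2.55-fold, SE 0.29, adjusted p = 0.0345, n = 2 arrays per group), and the HFD+As arrays differed from each other by more than the lower of them differed from HFD. With a single array left out the difference lay between 0.74 and 1.95, and the call was lost under each of the 4 scaling alternatives (adjusted p from 0.0508 to 0.0935). The LFD arrays read 7.82 and 7.2, above both HFD arrays.

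Akr1c19, an aldo-keto reductase gene, read 9.08 and 9.19 in HFD against 10.13 and 10.75 in HFD+As. It rose by 1.31 (SE 0.17, adjusted p = 0.00354) and remained called under each scaling and without any 1 array. Derl3, which encodes a component of the machinery that extracts misfolded proteins from the endoplasmic reticulum, read 8.17 and 7.71 against 9.04 and 9.29 and rose by 1.22 (SE 0.25, adjusted p = 0.0292). The groups did not overlap in either gene, but Derl3 lost its call under each of the 4 scaling alternatives (adjusted p from 0.0529 to 0.09). Pir, which encodes the iron-binding nuclear protein pirin, rose by 0.93 from 9.34 and 9.52 to 10.1 and 10.61 (adjusted p = 0.0252). Nat8, an acetyltransferase gene of the pathway that turns glutathione conjugates into mercapturic acids, rose by 0.91 from 8.48 and 8.44 to 9.66 and 9.06 (adjusted p = 0.0242). Etnppl, whose product breaks down phosphoethanolamine, rose by 0.89 from 9.76 and 9.36 to 10.36 and 10.54 (adjusted p = 0.0276). Both Pir and Nat8 kept their calls with the span trend removed, and so did Etnppl. Snord57, a small nucleolar RNA gene whose RNA guides methylation of ribosomal RNA, read 8.74 and 8.82 in HFD against 10.31 and 9.18 in HFD+As and rose by 0.96 (adjusted p = 0.0492). Its value rested on HFD+As replicate 1, without which the difference was 0.4. On the LFD arrays Akr1c19 read 10.18 and 9.92, Pir 9.95 and 9.89, Nat8 9.04 and 8.83, and Etnppl 11.1 and 10.67. These 4 genes thus stood above both HFD arrays there, and Etnppl in HFD+As stayed below both LFD arrays. Derl3, at 7.64 and 8.22 in LFD, did not separate from HFD, and Snord57, at 7.9 and 7.89, lay below it. The 45 higher genes include 4 with predicted or unnamed symbols.

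**Figure D2:**
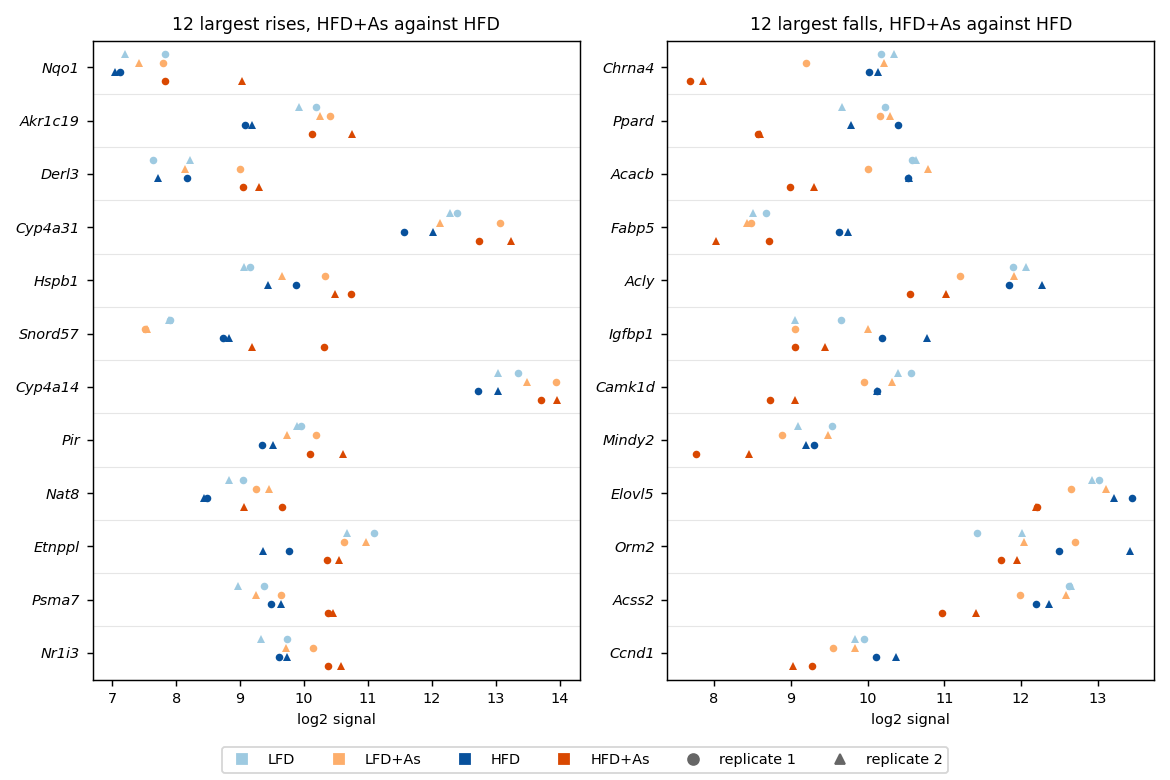
Log2 signals of the 12 genes with the largest rises (left) and the 12 with the largest falls (right) among called genes, on all 8 arrays. Colours are the 4 groups and shapes the 2 replicates, and the levels of different genes are not comparable. In each gene shown the HFD and HFD+As arrays do not overlap, with Chrna4 furthest apart (10.02 and 10.13 against 7.68 and 7.85).

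Among the genes that fell, Chrna4 had the largest change. It encodes a subunit of the nicotinic acetylcholine receptor. Chrna4 read 10.02 and 10.13 on the HFD arrays and 7.68 and 7.85 on the HFD+As arrays, and fell by 2.31 (4.96-fold, SE 0.23, adjusted p = 0.0016). With a single array left out the difference lay between -2.39 and -2.22. Ppard encodes PPAR-delta, a nuclear receptor for fatty acids. Ppard read 10.4 and 9.78 in HFD against 8.57 and 8.6 in HFD+As and fell by 1.5 (SE 0.20, adjusted p = 0.00354). The LFD arrays also stood apart from each other (10.23 and 9.67), and the difference ran from -1.81 to -1.19 with a single array left out.

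Camk1d, a calcium/calmodulin-dependent kinase gene, read 10.12 on both HFD arrays and 8.73 and 9.06 in HFD+As and fell by 1.22 (SE 0.15, adjusted p = 0.00354). Ccnd1 encodes cyclin D1, which drives entry into the cell cycle. Ccnd1 read 10.11 and 10.37 against 9.28 and 9.03 and fell by 1.09 (SE 0.14, adjusted p = 0.00354). Fabp5, a fatty acid binding protein gene, read 9.63 and 9.75 against 8.71 and 8.03 and fell by 1.32 (SE 0.17, adjusted p = 0.00354). These 3 genes and Chrna4 kept their calls without any 1 array. Mindy2, a deubiquitinase gene, fell by 1.14 (adjusted p = 0.0276), and Igfbp1, a hepatic protein that binds insulin-like growth factors and is repressed by insulin, read 10.19 and 10.77 against 9.06 and 9.45 and fell by 1.23 (adjusted p = 0.0395). Igfbp1 was not called with the median gene set to 0 (adjusted p = 0.106). The 389 lower genes include 9 with predicted or unnamed symbols.

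Fatty acid synthesis was the pathway list with the most calls. All 25 of its genes were measured and passed the filter on low signals, 14 fell and 0 rose (against 3.25% of all genes called lower). The median difference was -0.68 and 24 of the 25 lay below the median gene. The mean signal of the list was 11.43 and 11.51 on the HFD arrays and 10.71 and 10.88 on the HFD+As arrays. On the LFD arrays it was 11.54 and 11.5, so HFD+As alone was low among these 3 groups. LFD+As had 11.16 and 11.46.

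The first steps make acetyl-CoA in the cytosol and build the chain. Acly, which splits citrate to acetyl-CoA, read 11.84 and 12.27 in HFD against 10.55 and 11.02 in HFD+As and fell by 1.27 (SE 0.22, adjusted p = 0.0164). Acss2, which makes acetyl-CoA from acetate, read 12.2 and 12.36 against 10.97 and 11.41 and fell by 1.09 (SE 0.18, adjusted p = 0.0153). The carboxylases that make malonyl-CoA both fell: Acacb by 1.39 from 10.53 and 10.54 to 8.99 and 9.3 (SE 0.20, adjusted p = 0.00644), and Acaca by 0.85 from 11.02 and 11.4 to 10.19 and 10.55 (SE 0.18). Malonyl-CoA made by the Acacb enzyme at the mitochondrion is known to hold back the import of fatty acids for oxidation. Fasn, the fatty acid synthase itself, read 12.83 and 13.13 against 11.72 and 12.07 and fell by 1.08 (SE 0.17, adjusted p = 0.0135). Of the 10 genes of this role 5 were called and all 10 were below 0, with a median of -0.77. The citrate carrier gene Slc25a1 (-0.34), the malic enzyme gene Me1 (-0.39) and Thrsp (-0.70, adjusted p = 0.154) were not called.

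Elongases and desaturases had 5 of 7 tested genes called lower, with a median of -0.79. Elovl5, which lengthens polyunsaturated fatty acids, read 13.45 and 13.21 in HFD against 12.21 and 12.2 in HFD+As and fell by 1.13 (2.19-fold, SE 0.15, adjusted p = 0.00354). Scd1, the desaturase that makes oleate and palmitoleate, read 14.12 and 14.07 against 13.14 and 12.97 and fell by 1.04 (2.06-fold, SE 0.13, adjusted p = 0.00354). Both were called without any 1 array and under each scaling. The desaturases of polyunsaturated fatty acids, Fads1 and Fads2, fell by 0.90 (adjusted p = 0.00644) and by 0.71 (adjusted p = 0.0132), and Elovl6, which lengthens palmitate, by 0.79 (SE 0.19, adjusted p = 0.0457). Elovl2 (-0.48, adjusted p = 0.0611) and Scd2 (-0.66, adjusted p = 0.0737) were not called. Scd1 was at 14.12 on both LFD arrays, so its HFD level matched that of the low-fat diet and the 2 HFD+As arrays stood below all the LFD and HFD arrays.

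Regulators of the pathway showed smaller differences. Srebf1, which encodes the SREBP-1 factors, read 10.59 and 10.4 in HFD against 9.79 and 9.9 in HFD+As and fell by 0.65 (SE 0.14, adjusted p = 0.0319). Scap, the escort protein of SREBP, fell by 0.68 (adjusted p = 0.0205) and Insig1, the retention protein that binds it, by 0.53 (adjusted p = 0.037). Pnpla3, a lipid droplet protein gene controlled by SREBP-1c, fell by 0.77 (adjusted p = 0.0276). The ChREBP gene Mlxipl was at -0.48 (adjusted p = 0.0931) and its partner Mlx at -0.13. The liver X receptor gene Nr1h3 was the single member above 0, at 0.28 (adjusted p = 0.171).

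**Figure D3:**
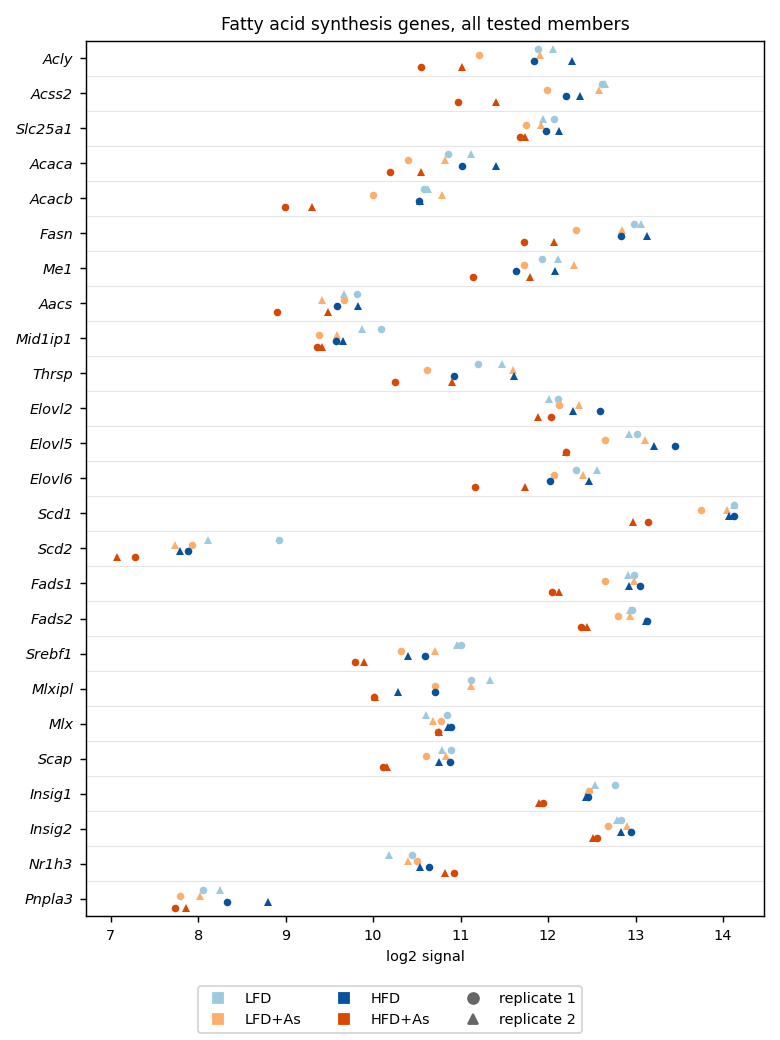
Log2 signals of the 25 fatty acid synthesis genes on all 8 arrays, ordered from acetyl-CoA supply to regulators. Colours are groups and shapes replicates, and the levels of different genes are not comparable. The HFD+As arrays lie below the HFD arrays without overlap in 23 of the 25 genes, and above them in Nr1h3.

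How many of the 14 falls passed depended on the treatment of the general shift. With the median gene set to 0 there were 6, Acacb, Elovl5, Scd1, Fads1, Fads2 and Scap, and with the span trend removed 4, Acacb, Elovl5, Scd1 and Fads1. The list median was -0.56 and -0.53 in these settings, and 13 genes were called without HFD replicate 2, 14 without HFD+As replicate 2, 6 without HFD replicate 1 and 2 without HFD+As replicate 1. On the low-fat diet the same list had a median of -0.20 for LFD+As minus LFD, with 22 of 25 genes below 0, 52.5% of all genes tested being below 0 there.

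The promoters of 3 of the genes that fell are shown because their E-box (CACGTG, the core of sites known to bind ChREBP, SREBP and other basic helix-loop-helix factors) is the motif searched in this list. Each window is the 250 bases before the annotated start, from RefSeq on GRCm38.p6, plus strand, with the E-box in capitals.
Elovl5, chr9:77917115-77917364: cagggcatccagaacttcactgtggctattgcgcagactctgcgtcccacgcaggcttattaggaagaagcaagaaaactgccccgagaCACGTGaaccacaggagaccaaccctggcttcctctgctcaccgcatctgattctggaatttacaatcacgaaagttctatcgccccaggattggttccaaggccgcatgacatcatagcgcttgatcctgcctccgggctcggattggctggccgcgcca
Scap, chr9:110333106-110333355: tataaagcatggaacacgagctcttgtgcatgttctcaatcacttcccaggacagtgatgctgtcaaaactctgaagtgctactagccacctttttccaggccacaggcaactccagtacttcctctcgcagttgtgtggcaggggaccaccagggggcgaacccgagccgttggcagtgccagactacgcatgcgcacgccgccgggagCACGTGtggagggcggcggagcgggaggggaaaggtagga
Insig1, chr5:28071162-28071411: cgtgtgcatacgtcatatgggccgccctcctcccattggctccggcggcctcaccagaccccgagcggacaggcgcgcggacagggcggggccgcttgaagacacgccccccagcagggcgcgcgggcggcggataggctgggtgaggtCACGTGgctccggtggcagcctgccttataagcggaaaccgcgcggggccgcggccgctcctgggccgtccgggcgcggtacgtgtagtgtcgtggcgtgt
The motif lies at -161 to -156 in Elovl5, -40 to -35 in Scap and -101 to -96 in Insig1, counted from the start. It was present in 6 of the 22 list members with a window (27.3%) and in 9.99% of 9565 tested genes with one. Of the 14 genes that fell, only Elovl5, Scap and Insig1 had a match. The other list members with a match were not called, so the motif did not mark the genes that fell. The sterol element core TCACNCCAC was found in 1 of 22 (4.55%), against 1.28%. Both strands were searched. A match describes these letters and is no evidence of binding.

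Triglyceride assembly and cholesterol synthesis had fewer calls. Of 16 tested genes of triglyceride assembly and lipid droplets, 3 fell and 0 rose, with a median of -0.13, equal to the median gene. Lpin1, the phosphatidate phosphatase that makes diacylglycerol, read 9.79 and 9.6 in HFD against 8.54 and 8.78 in HFD+As and fell by 1.03 (SE 0.19, adjusted p = 0.0239). Gpam, the first acyltransferase of the pathway, fell by 0.84 (adjusted p = 0.0413) and Plin2, the main lipid droplet coat protein of hepatocytes, by 0.47 from 12.67 and 12.57 to 12.14 and 12.17 (adjusted p = 0.0416). The Plin2 level in HFD+As was close to that of the LFD arrays (12.08 and 12.08). The last acyltransferase genes, Dgat1 (0.13) and Dgat2 (-0.11), were not called. Of 19 tested cholesterol genes 4 fell, Sqle by 0.52, Dhcr7 by 0.50, Fdps by 0.45 and Sc5d by 0.45, with adjusted p from 0.037 to 0.0492, and the list median was -0.32. With the span trend removed, or the median gene set to 0, 0 genes of either list were called. Whichever of the 4 HFD and HFD+As arrays was left out, 0 cholesterol genes were called, and triglyceride genes had 0 calls without either replicate 1 array and 2 without either replicate 2 array.

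Genes of insulin signalling and glucose metabolism had a median of -0.26, with 3 of 30 tested genes called lower and 0 higher. Besides Igfbp1 these were Pklr, the liver pyruvate kinase that ChREBP controls, which fell by 0.85 from 11.99 and 12.12 to 11.06 and 11.35 (adjusted p = 0.0276), and the insulin receptor gene Insr, which fell by 0.55 from 10.66 and 10.34 to 9.8 and 10.11 (adjusted p = 0.0498). All 9 genes from the receptor to its kinases were below 0 (Irs1 -0.43, Irs2 -0.45, Akt2 -0.24), 8 of them without overlap of the arrays. Of all genes tested, 72.3% were below 0 and 45.8% were lower without overlap. The 9 genes are long, with a median span of 69 kb. Their median difference was -0.33, or -0.12 with the span trend removed. The gluconeogenic gene Pck1 read 12.23 and 11.48 against 11.8 and 12.07 and did not differ beyond its replicates (0.08, adjusted p = 0.838). G6pc was at -0.44 (adjusted p = 0.168). The 3 calls were lost with the median gene set to 0.

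Oxidation genes as a list did not follow the omega-hydroxylases. Of 29 tested fatty acid oxidation genes and PPAR-alpha targets, 2 rose and 0 fell, and the median was -0.08. Both rises were cytochrome P450 genes of the 4a family, which hydroxylate the far end of fatty acids and are classical PPAR-alpha targets in rodents. Cyp4a14 read 12.72 and 13.03 in HFD against 13.71 and 13.96 in HFD+As and rose by 0.95 (SE 0.17, adjusted p = 0.0203). Cyp4a10 read 12.01 and 12.15 against 12.72 and 12.97 and rose by 0.77 (SE 0.16, adjusted p = 0.0307), and Cyp4a31, outside the list, read 11.56 and 12.02 against 12.73 and 13.23 and rose by 1.19 (SE 0.25, adjusted p = 0.0307). Cyp4a31 lost its call under each of the 4 scaling alternatives (adjusted p from 0.054 to 0.0823) and without HFD replicate 1 (adjusted p = 0.298). All 5 tested members of the family were above 0 (median 0.77), and the probes of each may bind transcripts of its relatives. Other genes of the list were not called: Cpt1a was at -0.30, Acadm at -0.13, Ehhadh at 0, Angptl4 at -0.11 and Pdk4, at -0.78, had the lowest value (adjusted p = 0.0814). Ppara itself read 10.88 and 10.65 against 10.36 and 10.63 (-0.27, adjusted p = 0.211). On leaving out HFD replicate 1, or either of the HFD+As arrays, 0 list members were called.

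Of the genes that arsenite is best known for, most were not called on this diet. The metallothionein genes Mt1 and Mt2 encode small metal-binding proteins. Mt1 read 11.54 and 11.06 in HFD against 11.47 and 10.91 in HFD+As (-0.11, SE 0.39, adjusted p = 0.88), and Mt2 read 12.74 and 12.78 against 13.43 and 12.51 (0.21, SE 0.48, adjusted p = 0.816). The arrays of the groups overlapped in both genes. Heme oxygenase, Hmox1, read 9.04 and 8.67 against 8.88 and 8.8 (-0.02, SE 0.14, adjusted p = 0.948). On the LFD arrays Mt1 read 9.02 and 8.65, Mt2 10.09 and 9.59, and Hmox1 8.31 and 8.19. The LFD+As arrays read 11.1 and 9.38 for Mt1, 13.24 and 11.09 for Mt2, and 8.73 and 8.47 for Hmox1. In each of these genes both HFD arrays thus stood above both LFD arrays without arsenite, a difference that was not tested. The methyltransferase gene As3mt read 10.65 and 10.94 against 10.28 and 10.72 (-0.30, SE 0.16, adjusted p = 0.255). Of 9 tested genes of metal binding and transport and 23 of arsenic methylation and methyl supply, 0 were called, with medians of -0.22 and -0.12.

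In the list of NRF2 targets and glutathione genes, 1 of 35 tested genes rose and 0 fell, at a median of -0.02. The call was Nqo1. Srxn1, the sulfiredoxin gene, was at 0.64 (adjusted p = 0.0671) and the glutathione transferase gene Gstm4 at 0.54 (adjusted p = 0.0508), neither called, while Txnrd1 (-0.06), Gclc (0.17), Gclm (0.04) and Gsta3 (0) lay near 0. Nfe2l2, the gene of NRF2 itself, was at -0.37 (adjusted p = 0.0682). The core of the antioxidant response element, TGACNNNGC, was found in 10 of 30 list members with a window (33.3%) and in 13.9% of tested genes. In the proteasome list it was found in 4 of 22 (18.2%), and both searches were added after the values were seen.

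In the heat shock list 1 of 20 tested genes rose and 1 fell, with a median of -0.01. Hspb1, which encodes the small heat shock protein HSP25 (HSP27 in humans), read 9.87 and 9.43 in HFD against 10.74 and 10.49 in HFD+As and rose by 0.97 (SE 0.20, adjusted p = 0.0288). Hspb1 lost its call with quantile normalization (adjusted p = 0.0639) and with the span trend removed (adjusted p = 0.0825). Its difference lay between 0.75 and 1.19 with a single array left out. Dnajb4, a cochaperone gene, read 10.87 and 10.77 against 10.18 and 10.19 and fell by 0.63 (SE 0.12, adjusted p = 0.0233). Of the 4 scaling alternatives, Dnajb4 kept its call only with the median gene set to 0 (adjusted p = 0.0498). Inducible Hspa1a (-0.57, adjusted p = 0.123), Dnajb1 (-0.38) and Bag3 (-0.43) had negative values and Hspe1 (0.42) and Hsp90aa1 (0.37) positive ones, and none of these 5 was called. The Hspb1 promoter is shown because it carries the pair of heat shock element cores (GAANNTTC, in capitals), the sites known to bind the factor HSF1. The window is the 250 bases before the start on the plus strand, from RefSeq on GRCm38.p6.
Hspb1, chr5:135887669-135887918: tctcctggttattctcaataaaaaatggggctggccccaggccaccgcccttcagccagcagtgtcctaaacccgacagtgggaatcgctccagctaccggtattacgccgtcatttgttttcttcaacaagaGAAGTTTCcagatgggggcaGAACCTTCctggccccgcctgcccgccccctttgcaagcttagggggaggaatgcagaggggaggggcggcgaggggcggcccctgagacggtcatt
There are 2 cores, the farther one at -117 to -110 from the start. A core was present in 5 of 17 list members with a window (29.4%) and in 6.08% of tested genes. On the low-fat diet the Hspb1 difference was 0.88 and it was not called (adjusted p = 0.267).

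Of 36 tested genes of the unfolded protein and integrated stress response, 0 were called, with a median of -0.07. The sensor gene Ern1 was at -0.58 (adjusted p = 0.055), and Trib3, a target of the integrated stress response, at -0.05. Derl3, the one large rise connected with the endoplasmic reticulum, thus stood apart from the list. The full endoplasmic reticulum stress element was found in 8 of 31 members with a window (25.8%), against 0.157% of tested genes, so the list does hold genes with that element. The metal response element core TGCNCNC is common, in 5 of 7 metal genes (71.4%) and 56.7% of tested genes.

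Proteasome and ribosomal protein genes ran against the general shift. Of 27 tested proteasome genes 3 rose (0.376% of all genes were called higher) and 0 fell. Of the 27, 26 were above 0 and all 27 were above the median gene, at a median of 0.24. The wider family was less uniform. Of 45 tested Psm genes taken by symbol, 37 were above 0 (median 0.2), 3 were called higher and 0 lower. Psma7, an outer-ring subunit, read 9.48 and 9.64 in HFD against 10.37 and 10.45 in HFD+As and rose by 0.85 (SE 0.16, adjusted p = 0.0233), Psma5 rose by 0.60 (SE 0.15, adjusted p = 0.0492) and the catalytic subunit Psmb6 by 0.57 (SE 0.14, adjusted p = 0.0417). Pomp, the assembly chaperone of the core particle, which is no list member and was picked after its value was seen, rose by 0.60 from 9.75 and 9.79 to 10.45 and 10.3 (adjusted p = 0.0277). The proteasome median was 0.38 with the span trend removed, with 2 calls. This is close to its distance of 0.37 from the median gene with the deposited values. Without HFD replicate 1, or without HFD+As replicate 1, 0 members were called. Leaving out HFD replicate 2 left 2 and HFD+As replicate 2 left 1. Of the 26 tested genes in the list of cytosolic ribosomal proteins 25 were above 0 (median 0.23). In this list 0 were called, with Rpl26 at 0.64 (adjusted p = 0.06). The list holds only part of the family. Of 51 tested Rpl and Rps genes taken by symbol, 49 were above 0 (median 0.22) and 1 was called higher. Respiratory chain and ATP synthase genes, 48 tested, had a median of 0.07 with 2 called higher (Atp5l by 0.56, Ndufa7 by 0.50) and 1 lower (Sdha by -0.47). These 3 lists have short genes, with median spans of 12.4, 3.76 and 7.5 kb.

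Drug-metabolizing enzymes had 3 of 30 tested genes called higher (0.376% of all genes were) and 0 lower, at a median of -0.01. The 3 calls were lost without HFD replicate 1 and without either HFD+As array. Nr1i3 encodes CAR, the nuclear receptor that senses xenobiotics and drives Cyp2b genes. Nr1i3 read 9.61 and 9.74 in HFD against 10.37 and 10.57 in HFD+As and rose by 0.80 (SE 0.16, adjusted p = 0.0292). The glucuronosyltransferase gene Ugt2b5 rose by 0.58 (adjusted p = 0.0307) and the epoxide hydrolase gene Ephx1 by 0.53 (adjusted p = 0.0482), while 0 of 19 P450 genes of this list were called. Of 24 bile acid genes 1 fell, the bile salt export pump gene Abcb11, by 0.52 (adjusted p = 0.0498). Cyp7a1, the rate-limiting enzyme of bile acid synthesis, read 11.12 and 11.72 against 11.65 and 11.95 and was not called (0.37, adjusted p = 0.275). In the list of growth hormone signalling and sex-biased genes, 1 of 24 rose (Ugt2b38, by 0.47) and 2 fell. Socs2, the feedback inhibitor of growth hormone signalling, read 9.45 and 9.19 against 8.69 and 8.47 and fell by 0.74 (adjusted p = 0.0481), and the complement gene C8a fell by 0.59 (adjusted p = 0.0408). The calls of Abcb11, Socs2 and C8a were lost under each of the 4 scaling alternatives, and those of Ephx1 and Ugt2b38 whichever of the 8 arrays was left out. Probes of the Ugt2b, Akr1c and Nat8 families may bind transcripts of close relatives.

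Acute phase genes, whose products the liver secretes in inflammation, were mostly lower with arsenite on this diet. Of 30 tested genes 3 fell and 0 rose, 28 were below 0 and the median was -0.39. Over all genes tested, 3.25% were called lower and 72.3% were below 0. Orm2, an orosomucoid gene, read 12.49 and 13.42 in HFD against 11.74 and 11.95 in HFD+As and fell by 1.11 (SE 0.28, adjusted p = 0.0473). Itih4 fell by 0.59 from 13.7 and 13.57 to 12.95 and 13.14 (adjusted p = 0.0276) and Nfkbia, the inhibitor of NF-kappaB that is itself an NF-kappaB target, by 0.49 (adjusted p = 0.0416). The serum amyloid gene Saa1 read 10.08 and 10.48 against 9.07 and 8.88 without overlap and was not called (-1.30, SE 0.57, adjusted p = 0.169), and Lcn2 was at -0.92 (adjusted p = 0.142). The mean signal of the list was 11.77 and 11.85 in HFD against 11.4 and 11.47 in HFD+As, against 10.82 and 11.08 in LFD. On the low-fat diet 29 of the 30 were above 0 for LFD+As minus LFD (median 0.23), while 52.5% of all genes tested were below 0 there. With the median gene set to 0, 0 acute phase genes were called. Interferon-stimulated genes had 1 of 21 called lower, the RNA sensor gene Dhx58, which fell by 0.66 from 8.9 and 8.82 to 8.22 and 8.19 (adjusted p = 0.019). All 21 were below 0, as were 72.3% of all genes tested. The list median of -0.30 ran from -0.43 to -0.15 with an array left out.

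Some markers of macrophages, and 1 of sinusoidal endothelium, fell in this comparison. Of 16 tested macrophage markers 4 fell and 0 rose, at a median of -0.39. Mpeg1, a pore-forming protein of macrophages, read 10.01 and 9.82 in HFD against 8.8 and 9.18 in HFD+As and fell by 0.92 (SE 0.14, adjusted p = 0.00869), also with the span trend removed (-0.90, adjusted p = 0.0326). The scavenger receptor gene Cd163 fell by 0.62 (adjusted p = 0.0416), the macrophage surface receptor gene Adgre1 by 0.61 (adjusted p = 0.0403), and Cd5l by 0.59 (adjusted p = 0.0368). The Kupffer cell marker Clec4f was at -0.61 (adjusted p = 0.0603), while Lyz2 (-0.11), C1qb (-0.13) and Marco (0.12) lay closer to the median gene. The list mean was 9.63 and 9.51 in HFD against 9.25 and 9.13 in HFD+As, and 9.35 and 9.25 in LFD. Of 13 sinusoidal markers 1 fell, the hyaluronan receptor gene Stab2, by 0.73 (adjusted p = 0.0289). All 13 were below 0, as were 72.3% of all genes tested. The sinusoidal median was -0.50 (-0.71 to -0.29 with an array left out). The list mean was 9.71 and 9.28 in HFD against 9.03 and 9.08 in HFD+As. With the span trend removed these medians were -0.30 and -0.31. The calls of Cd163, Adgre1, Cd5l and Stab2 were lost under each of the 4 scaling alternatives. Without HFD replicate 1, or without HFD+As replicate 1, 0 markers of either kind were called, and without HFD+As replicate 2 there were 2 macrophage and 0 sinusoidal calls. Without HFD replicate 2 there were 6 and 10. In whole liver, fewer cells of a type and less RNA per cell cannot be told apart. Markers of stellate cells (10 tested, median -0.19), lymphocytes (7, 0.01), neutrophils (2, 0.33), cholangiocytes (2, -0.34), erythroid cells (2, -0.09), adipocytes (2, 0.06) and exocrine pancreas (3, 0.16) had 0 called. The part of these marker levels in the acute phase and interferon values was not tested.

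Chromatin and transcription regulators, a list of mostly very long genes (median span 109 kb), had 9 of 31 tested genes called lower and 0 higher, and all 31 lay below the median gene (median -0.41). The coactivator genes Ep300 and Crebbp, which encode histone acetyltransferases, fell by 0.72 (adjusted p = 0.0326) and 0.63 (adjusted p = 0.0337), and the histone methyltransferase genes Kmt2d and Kmt2a by 0.70 (adjusted p = 0.0403) and 0.62 (adjusted p = 0.03). Ep300 read 9.6 and 9.25 in HFD against 8.52 and 8.9 in HFD+As. With the span trend removed the list median was -0.18 and 0 were called, and 0 were called with the median gene set to 0. In contrast, the fatty acid synthesis list kept a median of -0.53 under the same removal. The nuclear RNA Malat1 fell by 0.62 (adjusted p = 0.0398).

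Cell cycle genes had 2 of 20 called lower, Ccnd1 and its partner kinase gene Cdk6, which read 9.48 and 9.28 in HFD against 8.67 and 8.8 in HFD+As and fell by 0.65 (adjusted p = 0.0233). The list median of -0.12 was that of an average gene, and replication genes such as Mcm2 (-0.08) and Mcm5 (-0.01) were not called. Amino acid catabolism with the urea cycle (25 tested, median -0.12) and the circadian clock (14, -0.10) had 0 called. Among 21 tested nuclear receptors 1 rose (Nr1i3) and 1 fell (Ppard), and the list median was -0.21. Snord and Snora genes, 38 tested, had 2 called higher and a median of 0.31, or 0.15 with the span trend removed.

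**Figure D4:**
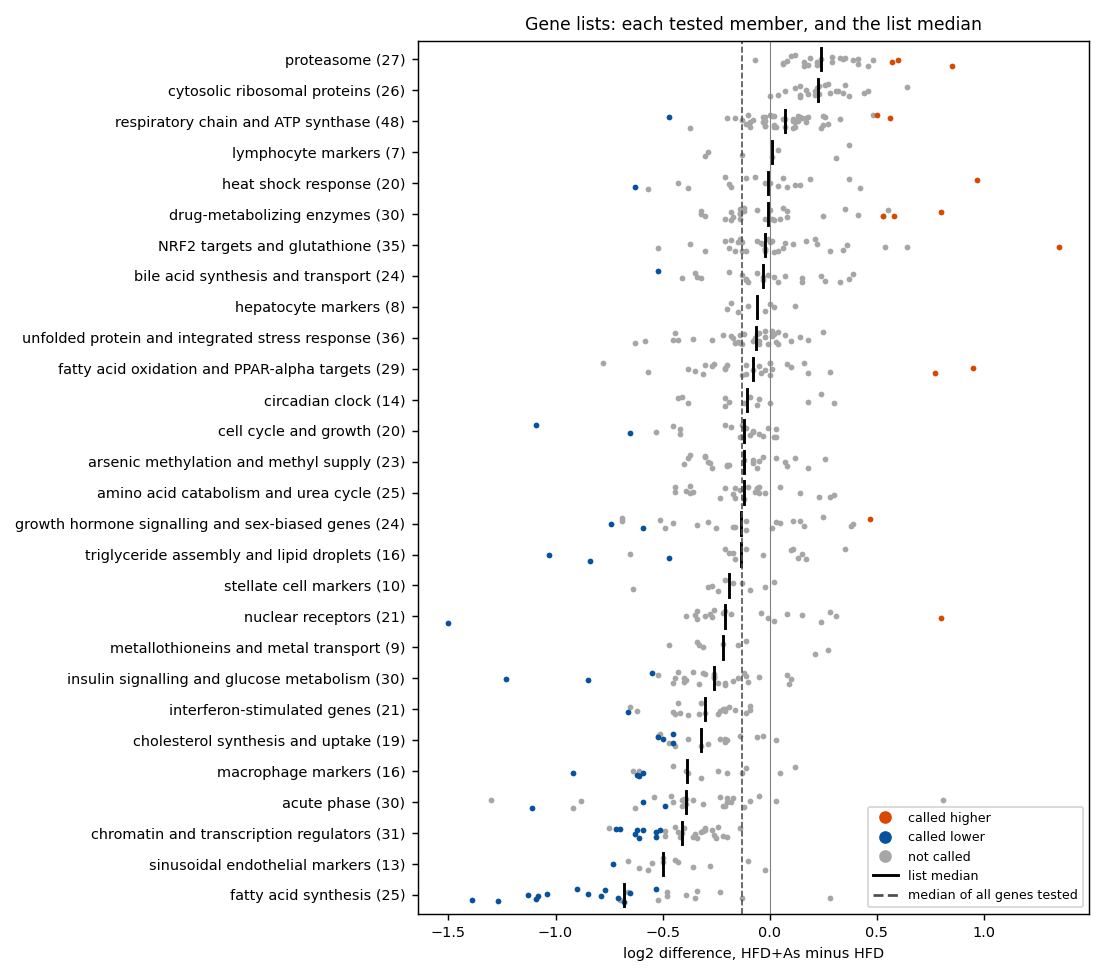
Log2 difference HFD+As minus HFD of every tested member of the lists with at least 5 tested genes (number tested in brackets), ordered by the list median. Coloured points are called genes, short black lines list medians, and the dashed line the median of all genes tested (-0.13). Fatty acid synthesis lies lowest (-0.68) and the proteasome highest (0.24).

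The low-fat diet gives the same comparison on separate arrays. There LFD+As against LFD had 8 genes called (0.0669%), 3 higher (0.0251%) and 5 lower (0.0418%), and 401 (3.35%) with an unadjusted p under 0.05, and its median gene stood at -0.0076. A single gene, Socs2, was called on both diets, and it fell by 2.04 on the low-fat and by 0.74 on the high-fat diet. Of the 389 genes called lower on the high-fat diet, 247 (63.5%) were also below 0 on the low-fat diet, where 52.5% of all genes were, and their median there was -0.04. Of the 45 called higher, 32 (71.1%) were above 0 there, at a median of 0.12.

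Whether arsenite differed more on one diet than on the other was tested by the interaction, (HFD+As minus HFD) minus (LFD+As minus LFD). Limma called 0 genes (0%), with a lowest adjusted p of 0.0591, and 1659 genes (13.9%) had an unadjusted p under 0.05, of which 1480 were negative. With a trend and robust moderation 17 were called. An adjusted p of 0.0591 was shared by Ppard (-1.78), Atp11a (-1.43), which encodes a phospholipid flippase, the muscarinic receptor gene Chrm3 (-1.38), the bile acid transporter gene Slc10a2 (-1.34), Lrg1 (-1.27), the lipocalin gene Lcn2 (-3.22) and Gm16381 (1.05). Other positive values included those of Clec2h (1.39), Socs2 (1.30), Akr1c19 (1.03), Phlda1 (0.83) and Gpcpd1 (0.77), with adjusted p from 0.116 to 0.17. The interaction did not pass for Scd1 (-0.81, adjusted p = 0.149), Elovl5 (-1.04, adjusted p = 0.117) or Acacb (-1.18, adjusted p = 0.17), nor for Mt2 (-2.12, adjusted p = 0.252), so none of these differences can be called particular to the high-fat diet. Hspb1 had an interaction of 0.09 (SE 0.28).

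**Figure D5:**
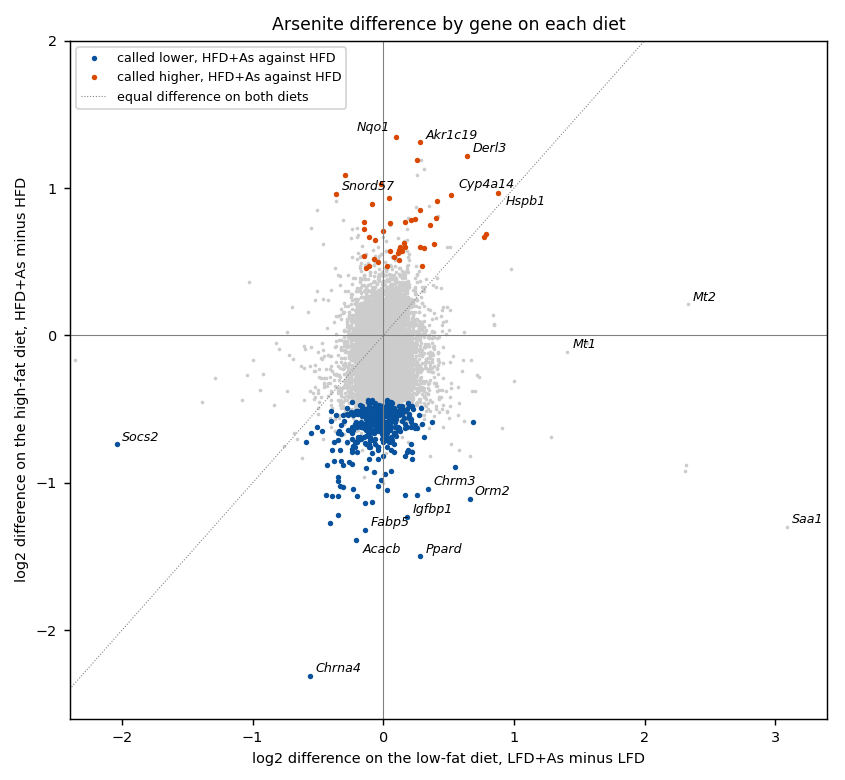
Log2 difference with arsenite for each gene tested, on the low-fat diet (x axis, LFD+As minus LFD) and on the high-fat diet (y axis, HFD+As minus HFD). Coloured points are the genes called on the high-fat diet. Most called genes lie near 0 on the x axis, and Hspb1 lies near the line of equal difference. Mt2 and Saa1 lie far to the right (2.33 and 3.09) without being called on either diet. The LFD arrays of Saa1 stood far apart (5.04 and 7.51).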

How the data were processed

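Liver RNA pools were measured on 8 Affymetrix arrays, 2 in each of 4 groups set by the sample titles. The values are log2 signals as deposited by the authors, and the submitters' processing notes name Expression Console 1.0 of Affymetrix as the software. The background correction and normalization are not given in the sources used here, and the number of arrays limits the precision.

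Clusters were named through the platform annotation, and gene IDs of 21698 clusters matched RefSeq on GRCm38.p6, which gave genomic spans and promoter windows. For each gene the cluster with the highest mean was kept, and the 60% of genes with the highest means were tested (lowest mean 6.97). Group means of all 8 arrays were fitted with limma 3.58.1 in R 4.3.3 (4 residual and 9.32 prior degrees of freedom, median SE 0.127), with Benjamini-Hochberg adjustment over all genes tested and a threshold of 0.05. All 4 groups share 1 estimate of the spread. Tables were summarised with pandas 2.3.3. On simulated data for this comparison, with 11963 genes, the script recovered 34 of 100 genes changed by 0.5 and 84 of 100 changed by 1 on the log2 scale, with 4 false calls. Only 200 genes were changed in the simulation, whereas the measured median gene stood at -0.13 and measured differences varied with span. The 4 false calls are therefore no estimate of the false calls among the measured genes, which was not tested.

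Named genes are the 12 largest rises and 12 largest falls among called genes whose arrays do not overlap, without predicted symbols. To these were added up to 4 called members of each gene list (or, where none was called, up to 2 with the smallest p), 16 genes fixed by name, and for the interaction 5 genes in each direction. Further list members, given with values for context, and Gm16381, Pstpip2, Acpp, Pomp and Lcn2 were picked after their values were seen. The comparison and the 34 gene lists were chosen with earlier results of these data known. Alternatives were other filters on low signals, only the 4 arrays, a replicate block, quantile normalization, median centring, removal of each array's lowess trend on log10 span, trended robust moderation, each cluster on its own and each array left out. The inclusion of clusters with several symbols, the median gene set to 0, and the span removal on only the 4 arrays were chosen after seeing the data. Replicate numbers were not taken to pair the pools.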

Additional observations from a re-analysis of the deposited data

Results flagged for a closer look

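In 13 of the called genes that are named, and in 5 named genes that were not called, both HFD+As arrays lay on one side of both HFD arrays, and both LFD+As arrays on the opposite side of both LFD arrays. Over all genes tested, the HFD+As and HFD arrays did not overlap for 10.7% upward and 45.8% downward. The share with opposite sides on the 2 diets was not counted over all genes. Some of the 13 and 5 genes were named for their interaction, and some low-fat differences were small (0.05 for Kmt2a, Plin2 and Itih4). At the printed precision an LFD and an LFD+As array shared the reading 12.08 in Plin2 and 13.43 in Itih4. The low-fat arrays of Plin2 and Itih4 are thus barely separated. The differences between the diets did not pass the interaction test of limma after adjustment in any of the 13 and 5 genes. The interaction is (HFD+As minus HFD) minus (LFD+As minus LFD), on the log2 scale. It was positive for the small nucleolar RNA gene Snord57, at 1.32 (adjusted p = 0.191).

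Among genes of the acute phase and of secreted liver proteins it was -1.77 for the orosomucoid gene Orm2 (adjusted p = 0.149), -1.27 for Lrg1 (adjusted p = 0.0591), -0.96 for the complement gene C8a (adjusted p = 0.117), -0.79 for Nfkbia (adjusted p = 0.133) and -0.64 for Itih4 (adjusted p = 0.187). For the macrophage gene Mpeg1 it was -0.98 (adjusted p = 0.116).

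The other genes have varied roles. The interaction was -1.43 for the flippase gene Atp11a, -1.38 for the muscarinic receptor gene Chrm3 and -1.34 for the bile acid transporter gene Slc10a2, each at an adjusted p of 0.0591. It was -0.87 for the cochaperone gene Dnajb4 (adjusted p = 0.103), -0.67 for the histone methyltransferase gene Kmt2a (adjusted p = 0.207) and -0.52 for the lipid droplet gene Plin2 (adjusted p = 0.243).

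Among the genes not called on the high-fat diet, the interaction was -4.39 for the serum amyloid gene Saa1 (adjusted p = 0.103), -0.49 for the zinc exporter gene Slc30a1 (adjusted p = 0.281) and 1.39 for Clec2h (adjusted p = 0.116). It was 0.35 for the T cell marker Cd8a (adjusted p = 0.339) and 0.50 for the pancreatic marker Cela1 (adjusted p = 0.264). The Saa1 interaction had an SE of 0.8. Saa1 read 5.04 and 7.51 on the LFD arrays and 10.07 and 8.66 on the LFD+As arrays. The LFD arrays thus stood far apart, and the lower reading is below 6.97, the lowest mean of a tested gene.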

How the results depend on the processing

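The 434 calls of HFD+As against HFD became 751 with trended robust moderation, 29 with no filter on low signals, 68 with median centring, 68 with the median gene set to 0, 28 with quantile normalization, 42 with the span trend removed (51 with only the 4 arrays) and 311 with each cluster on its own, or 0 when clusters of several symbols were also added. They ran from 24 to 1121 with a single array left out. With the replicate number as a block there were 230 calls, 33 higher and 197 lower, and the deviations of same-numbered HFD and HFD+As arrays correlated at 0.0402, so the numbers were not taken to pair the pools. The 8 calls of LFD+As against LFD became 1 with clusters of several symbols, 5 with each cluster on its own, 5 with median centring, 1 with no filter, 18 with only the 4 arrays and 4 with quantile normalization, and ran from 0 to 26 with an array left out. The interaction, with 0 calls, had 17 with trended robust moderation, 6 among the highest 40% of genes and from 0 to 23 with an array left out. It needs all 8 arrays and was not run on only the 4. The cause of these changes was not tested. For named genes, 1311 of the recomputed values kept their side of the threshold, 560 lost it, 25 passed it newly, and 0 changed sign while called on either side. List medians moved by less than the spread between replicates in 454 cases and by more in 156, and 2 lists (neutrophils and exocrine pancreas) had no gene among the highest 40%. With 2 pools per group, small changes are poorly resolved.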

Other observations

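Gene families were also summed by symbol, and some of their members are in the lists above. All 6 tested Akr1c genes, which encode aldo-keto reductases, lay above 0 (median 0.27, with 1 called), as did 6 of 7 tested Ugt2b genes, which encode glucuronosyltransferases (median 0.38, with 2 called). All 5 tested Elovl genes and all 4 tested Fads genes lay below 0 (medians -0.69 and -0.41, with 2 called in each). Over all genes tested, 72.3% lay below 0, 0.376% were called higher and 3.25% lower. Families this small add little to these shares by their sign alone. Of 67 tested Mir genes 2 were called higher, and their median was 0.13, or -0.04 with the span trend removed. Of 17 tested Gst genes, which encode glutathione transferases, 0 were called by limma (median -0.04). Probes of these families may bind transcripts of close relatives.

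The aldehyde oxidase gene Aox1 (0.75) and the biliverdin reductase gene Blvrb (0.79), picked after their values were seen, rose and were called under each of the 4 scaling alternatives. Aox1 read 9.91 and 9.6 on the HFD arrays against 10.42 and 10.6 with arsenite.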
